A study of Mus musculus with 9 samples.

Results

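The collagen chains were the 46 probe sets, for 44 genes, whose 1 listed symbol has the form Col, digits, a, digits (such as Col1a1), out of 23397 tested probe sets that carry a gene symbol and 28270 rows in the value table. They were grouped by the structure of their protein into 11 fibrillar, 9 network-forming, 9 FACIT, 8 beaded, 4 transmembrane and 2 multiplexin probe sets and 3 others. A cartilage group of 8 probe sets crosses these classes. Col6a5 and Col6a6 had a pair of probe sets each, every other gene 1.

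Expression was measured on 9 one-colour arrays of aortic valves from C57BL/6J mouse pups at postnatal day 1, with 3 arrays per group. The valves were cultured for 48 hours on floating filters, in medium that held 10% serum in every group, with all-trans retinoic acid (ATRA) at 1 µmol/L in DMSO, with LE540, an antagonist of the retinoic acid receptors whose dose and vehicle the labels do not give, or with DMSO alone at 0.001%. Each array held the RNA of 5 to 6 pooled pups, so single animals are not resolved, and in whole explants fewer cells of a type and less RNA per cell cannot be told apart. Values are RMA intensities, and differences are log2 differences between group means from a limma fit over all 9 arrays.

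Collagens, most of them secreted, are proteins in which 3 chains wind into a helix. Fibrillar types build the tension-bearing fibrils of the valve leaflet, FACIT types (fibril-associated collagens with interrupted helices) decorate those fibrils, network types form basement membranes and hexagonal lattices, and beaded type VI forms fine microfibrils around cells. Valve interstitial cells are the main source of fibrillar collagen in the leaflet. Retinoic acid acts through nuclear receptors that switch genes on or off, and matrix genes are among those it is known to affect in connective tissue.

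No collagen probe set passed in any comparison. In ATRA vs DMSO 0 of 46 reached an adjusted p under 0.1 (limma, Benjamini-Hochberg over all 23397 probe sets), where 0.0812% of all probe sets did. In LE540 vs DMSO it was 0 of 46, beside 0.0299% of all, and in ATRA vs LE540 0 of 46, beside 0.603%. At an unadjusted p under 0.05 there were 3 collagens in ATRA vs DMSO (6.52%), all higher, beside 4.70% of all probe sets in either direction and 2.34% higher. LE540 vs DMSO had 0, beside 8.80%, and ATRA vs LE540 had 3, all higher, beside 9.54% in either direction and 4.82% higher. These shares are a description with no test. With the replicate number as a block, which pairs the ATRA arrays with the others, 6 of 46 were under 0.05 in ATRA vs DMSO, beside 6.55% of all probe sets in that fit. The counts were 2 in LE540 vs DMSO, beside 11.3%, and 7 in ATRA vs LE540, beside 11.9%, and 0 passed. The lowest adjusted p was 0.695 in ATRA vs DMSO, 0.617 in LE540 vs DMSO and 0.258 in ATRA vs LE540.

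The intervals set limits on the change in measured signal. They limit a change in RNA only where the probe set follows its RNA, which was not tested. In ATRA vs DMSO the 95% confidence interval lay within a 2-fold change in either direction for 41 of 46 collagen probe sets, and within 1.5-fold for 34. The counts were 43 and 37 in LE540 vs DMSO, and 41 and 35 in ATRA vs LE540. The Col8a1 interval reached past 2-fold in all 3 comparisons.

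**Figure D1:**
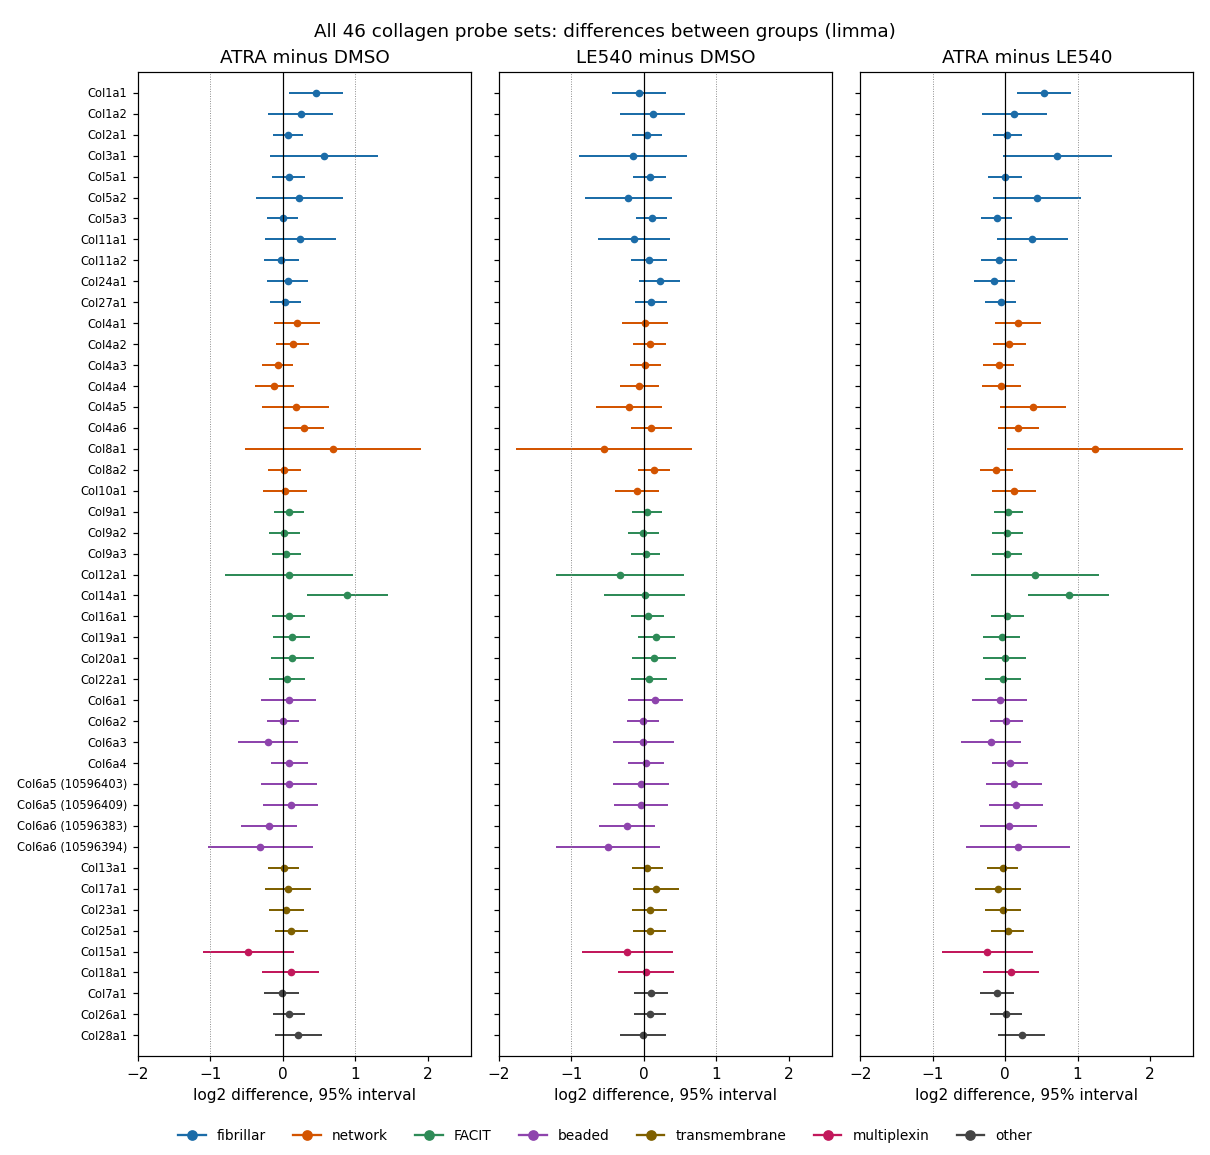
Log2 difference of each of the 46 collagen probe sets (rows, coloured by class) in ATRA minus DMSO, LE540 minus DMSO and ATRA minus LE540, from the limma fit with 3 arrays per group. Points are the estimates, bars the 95% confidence intervals, and dotted lines a 2-fold change; Col14a1 and Col1a1 lie right of 0 with their whole interval in both panels with ATRA, and most other intervals span 0.

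ATRA arrays had the higher mean for 37 of 46 collagen probe sets in ATRA vs DMSO, where 48.5% of all tested probe sets were higher. The median collagen difference was 0.082 log2, beside -0.0057 over all tested probe sets. All 9 FACIT and all 4 transmembrane probe sets were higher, with class medians of 0.088 and 0.060. Of the fibrillar probe sets 9 of 11 were higher (median 0.082), of the network type 7 of 9 (median 0.14) and of the beaded type 5 of 8 (median 0.043). Most of these differences were smaller than the spread between arrays. In LE540 vs DMSO 28 of 46 were higher, beside 54.7% of all, with a median of 0.026 beside 0.021. In ATRA vs LE540 28 of 46 were higher, beside 43.1% of all, with a median of 0.031 beside -0.029. The comparisons with DMSO share the 3 DMSO arrays, so their directions are not independent.

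The labels do not give the sex of the pooled pups. A score from 3 genes of the Y chromosome, their average log2 value after centring, was compared between groups. It ran from -0.034 to 1.35 in ATRA, -1.52 to 1.25 in LE540 and -2.50 to 0.16 in DMSO arrays, and the ranges overlapped. All 3 genes were higher in ATRA vs DMSO, with a median of 2.19 log2, and 2 had an unadjusted p under 0.05 (limma, 0 passed). When that score entered the fit, 21 of 46 collagens were higher in ATRA vs DMSO and the median was -0.0094, beside -0.021 over all probe sets. Because the score was mostly higher in ATRA than in DMSO arrays, this fit cannot fully separate the score from the treatment. The SE of Col14a1 in ATRA vs DMSO was 0.30 with the score and 0.24 without it. The 12 fibroblast and valve interstitial markers, which hold no collagen, had a summed intensity of 32554.5 to 33222.8 in ATRA, 16029.8 to 26507.8 in LE540 and 23978.1 to 28688.7 in DMSO arrays. Of these markers 10 of 12 were higher in ATRA vs DMSO (0 passed), 1 of 12 in LE540 vs DMSO (0 passed) and 11 of 12 in ATRA vs LE540, where Vcan, the large proteoglycan of valve matrix, passed (log2 difference 1.29, adjusted p = 0.0608). The shares of all tested probe sets that were higher were 48.5%, 54.7% and 43.1% in the same order. None of the 12 was below the lower quartile of the array in all 9 arrays. The part of either measure in the collagen values was not tested.

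Exposure to ATRA was visible in Rarb, a receptor gene that retinoic acid induces. Its intensity was 1524, 668 and 1182 in ATRA arrays, 88.5, 254 and 153 in LE540 arrays and 359, 147 and 212 in DMSO arrays. The ATRA arrays stood above all others. The log2 difference was 2.82 in ATRA vs LE540 (adjusted p = 0.0595) and 2.25 in ATRA vs DMSO, which did not pass (adjusted p = 0.353). Tgm2, a transglutaminase induced by retinoic acid, rose in ATRA vs DMSO (2.32, adjusted p = 0.000228) and in ATRA vs LE540 (2.18, adjusted p = 0.000395). Cyp26b1, which degrades retinoic acid, differed by 0.87 and 0.65 without passing (adjusted p = 0.146 and 0.154). In LE540 vs DMSO the log2 differences were -0.57 for Rarb, 0.14 for Tgm2 and 0.22 for Cyp26b1. None of these passed (limma, adjusted p = 0.719, 0.704 and 0.657). Whether LE540 blocked the receptors in these explants was not tested.

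Among the fibrillar chains, Col1a1 (probe set 10380419), the major chain of type I collagen, had the lowest unadjusted p. Its intensity was 821, 765 and 978 in ATRA arrays, 509, 559 and 703 in LE540 arrays and 627, 538 and 693 in DMSO arrays. Every ATRA array was above every other array. The ATRA mean of 855 ± 110 compared with 619 ± 77.7 in DMSO (SD, n = 3 each), a log2 difference of 0.46 (SE 0.16, 95% confidence interval 0.11 to 0.82, unadjusted p = 0.0170 from limma, adjusted p = 0.920). Against LE540 (590 ± 101) the log2 difference was 0.54 (SE 0.16, adjusted p = 0.303), and LE540 minus DMSO was -0.075 (95% confidence interval -0.43 to 0.28). ATRA minus DMSO was 0.27 once the Y-chromosome score was in the fit.

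Col1a2 (10536220), the partner chain of type I collagen, had 683, 717 and 953 in ATRA arrays, 639, 628 and 895 in LE540 arrays and 645, 564 and 766 in DMSO arrays. Its groups overlapped in every comparison, and the array numbered replicate 3 was the highest of each group. Within each replicate number the ATRA array was the highest. The log2 difference was 0.25 (SE 0.19) in ATRA vs DMSO, 0.12 in LE540 vs DMSO and 0.13 in ATRA vs LE540. Without ATRA replicate 3, in a fit that keeps the high DMSO replicate 3, ATRA minus DMSO was 0.099.

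Both type I chains enter the same protein, so their log2 ratio within each array was compared between groups. Col1a1 over Col1a2 was 0.27, 0.094 and 0.037 in ATRA arrays, -0.33, -0.17 and -0.35 in LE540 arrays and -0.042, -0.067 and -0.14 in DMSO arrays. The 3 groups did not overlap: ATRA arrays were the highest and LE540 arrays the lowest. The group mean was 0.13 ± 0.12 in ATRA, -0.28 ± 0.099 in LE540 and -0.084 ± 0.054 in DMSO (SD, n = 3 each). The level of such a ratio has no meaning between probe sets, and only its change between groups can be read. With 3 arrays against 3 an exact two-sided permutation test cannot go below 0.10, so none is given. This pair was singled out after its values were seen, from 8 chain pairs computed.

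In the other 7 pairs the groups overlapped in all 3 comparisons. For Col4a1 over Col4a2 the group means were 0.31 ± 0.10 in ATRA, 0.19 ± 0.10 in LE540 and 0.25 ± 0.17 in DMSO (SD, n = 3 each). For Col11a1 over Col11a2, chains of the fibril core in cartilage, they were 0.49 ± 0.39, 0.022 ± 0.22 and 0.23 ± 0.20 in the same order of groups.

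**Figure D2:**
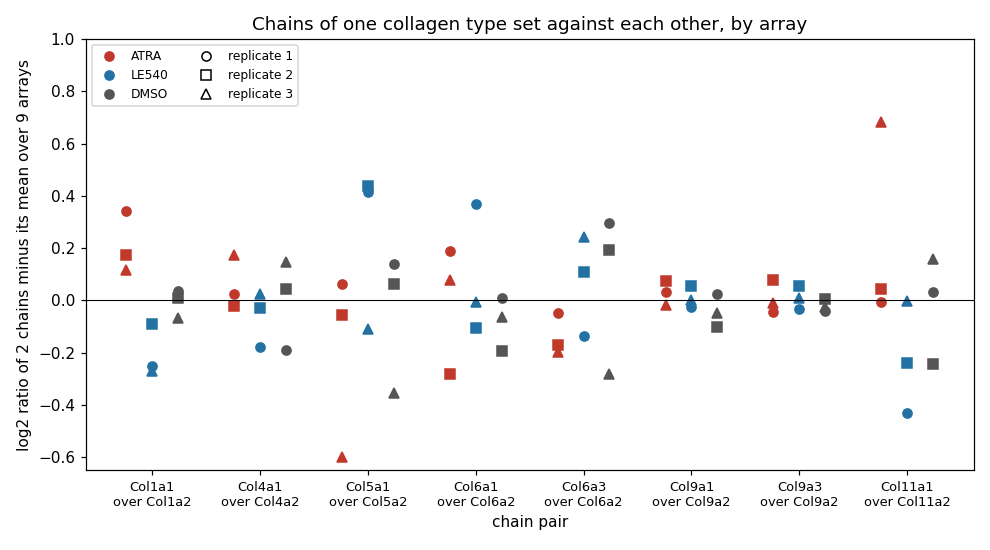
Log2 ratio of 2 chains of the same collagen type in each array, minus the pair's mean over the 9 arrays (y axis, log2 units), for the 8 chain pairs on the x axis. Colours are groups and shapes replicate numbers; for Col1a1 over Col1a2 the 3 ATRA arrays lie above and the 3 LE540 arrays below the 3 DMSO arrays, and in the other 7 pairs the groups overlap.

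The Col1a2 promoter is shown as the type I window in the RefSeq promoter table, from 250 bases before to 50 after an annotated start (GRCm38.p6, chr6:4505368-4505667, plus strand). Capitals mark CCAAT, the letters of a common promoter box, which this window holds once on each strand. The first base is at -109 from the annotated start on the gene's strand and at 0 for the opposite strand.
Col1a2 promoter window: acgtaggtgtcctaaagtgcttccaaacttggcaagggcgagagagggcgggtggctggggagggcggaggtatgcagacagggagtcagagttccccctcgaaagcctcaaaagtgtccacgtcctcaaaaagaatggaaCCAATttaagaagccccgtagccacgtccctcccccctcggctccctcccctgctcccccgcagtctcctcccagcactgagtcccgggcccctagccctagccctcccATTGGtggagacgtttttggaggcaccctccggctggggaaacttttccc

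Col3a1 (10346015) encodes the chain of type III collagen, which copolymerizes with type I in elastic tissues. Its intensity was 565, 658 and 789 in ATRA arrays, 253, 460 and 561 in LE540 arrays and 548, 305 and 536 in DMSO arrays. All ATRA arrays were above the rest, with the lowest ATRA array only just above the highest of the others. The log2 difference was 0.57 in ATRA vs DMSO (SE 0.32, adjusted p = 0.999) and 0.72 in ATRA vs LE540 (SE 0.32, adjusted p = 0.531). Single low arrays weighed on these values: ATRA minus DMSO was 0.29 without DMSO replicate 2, and ATRA minus LE540 was 0.39 without LE540 replicate 1. ATRA minus DMSO was 0.78 with the level of cardiomyocyte markers as a covariate and 0.41 with the Y-chromosome score.

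The Col3a1 window is shown because Col3a1 stood among the leading differences in both comparisons with ATRA (GRCm38.p6, chr1:45311288-45311587, plus strand). Capitals mark TATAAA, the letters of a TATA box, here with the first base at -117 from the annotated start. Whether they act as a promoter element was not tested.
Col3a1 promoter window: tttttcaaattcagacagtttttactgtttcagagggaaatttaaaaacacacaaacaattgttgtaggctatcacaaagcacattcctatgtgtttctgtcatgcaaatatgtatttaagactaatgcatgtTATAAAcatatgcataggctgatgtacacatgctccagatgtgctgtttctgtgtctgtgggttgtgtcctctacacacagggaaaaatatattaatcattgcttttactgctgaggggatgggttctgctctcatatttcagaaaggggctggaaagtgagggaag

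Col5a2 (10354309), a chain of type V collagen, which starts and sizes type I fibrils, is the next protein-coding gene to Col3a1 in the RefSeq gene table. Its intensity was 422, 447 and 664 in ATRA arrays, 305, 327 and 498 in LE540 arrays and 365, 373 and 570 in DMSO arrays. Replicate 3 was the highest array of each group, and the groups overlapped. Within each replicate number the ATRA array was the highest and the LE540 array the lowest. The log2 difference was 0.23 (SE 0.26) in ATRA vs DMSO, -0.21 in LE540 vs DMSO and 0.44 in ATRA vs LE540. Its partner Col5a1 differed by 0.082, 0.083 and -0.0008 in the same comparisons. Without ATRA replicate 3, in a fit that keeps the high DMSO replicate 3, ATRA minus DMSO was 0.026 for Col5a2. The remaining fibrillar probe sets of ATRA vs DMSO lay between -0.019 (Col11a2) and 0.24 (Col11a1).

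Among the network collagens, Col8a1 (10440091), a chain of the hexagonal type VIII lattice of vessels and heart valves, varied most. Its intensity was 434, 593 and 1574 in ATRA arrays, 185, 372 and 444 in LE540 arrays and 351, 359 and 761 in DMSO arrays. The groups overlapped, and ATRA replicate 3 stood far above the other arrays. Within each replicate number the ATRA array was the highest. The log2 difference in ATRA vs LE540 was 1.24 (SE 0.53, 95% confidence interval 0.041 to 2.45, unadjusted p = 0.0441 from limma, adjusted p = 0.503), the only collagen difference over 2-fold in any comparison. It was 0.70 without ATRA replicate 3 and 0.86 without LE540 replicate 1. With the replicate block the SE in ATRA vs LE540 was 0.23 (unadjusted p = 0.00115 from limma, adjusted p = 0.106). In ATRA vs DMSO the log2 difference was 0.69 (SE 0.53), and 0.15 without ATRA replicate 3, in a fit that keeps the high DMSO replicate 3. In LE540 vs DMSO it was -0.55 (SE 0.53), and -0.17 without LE540 replicate 1. Its partner Col8a2 differed by 0.022 and 0.14 in ATRA vs DMSO and LE540 vs DMSO.

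The Col8a1 window is shown because Col8a1 had the one collagen difference over 2-fold, in ATRA vs LE540 (GRCm38.p6, chr16:57754688-57754987, minus strand). None of the 3 motifs searched was found in it, so it carries no capitals.
Col8a1 promoter window: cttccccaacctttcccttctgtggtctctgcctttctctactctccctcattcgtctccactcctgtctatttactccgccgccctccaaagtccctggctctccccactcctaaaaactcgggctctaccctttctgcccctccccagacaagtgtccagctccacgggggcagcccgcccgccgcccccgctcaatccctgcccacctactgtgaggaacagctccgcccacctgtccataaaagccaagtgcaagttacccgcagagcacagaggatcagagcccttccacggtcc

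**Figure D3:**
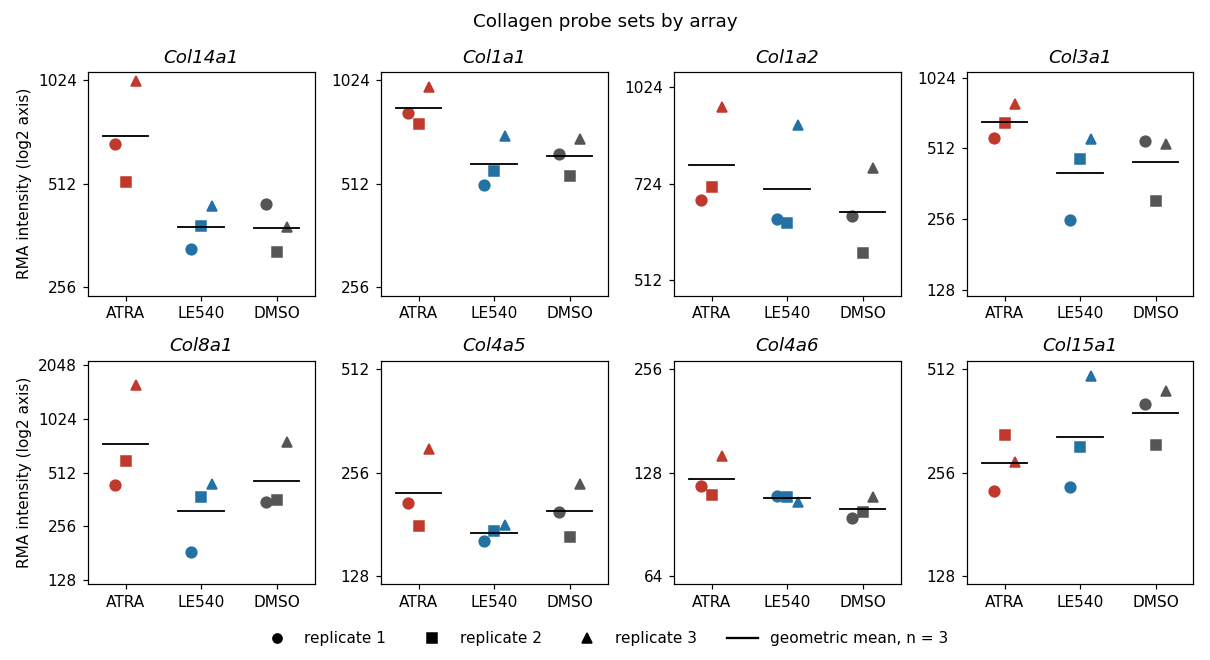
RMA intensity (log2 axis) of 8 collagen probe sets in each array, with ATRA, LE540 and DMSO from left to right; shapes are replicate numbers and bars geometric means of 3 arrays. ATRA arrays lie above all others for Col14a1, Col1a1, Col3a1 and Col4a6, and replicate 3 is the highest of every group for Col1a1, Col1a2, Col8a1 and Col4a5.

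Of the type IV chains, which form the lattice of basement membranes, Col4a1 and Col4a2 showed small differences. Col4a1 (10576973) had 339, 371 and 372 in ATRA arrays, 288, 323 and 348 in LE540 arrays and 261, 339 and 351 in DMSO arrays, and Col4a2 (10570068) averaged 291 ± 21.7, 279.6 ± 7.22 and 265 ± 13.4 in these groups (SD, n = 3 each). The groups overlapped for both. The log2 difference in ATRA vs DMSO was 0.20 (SE 0.13) for Col4a1 (0.062 without DMSO replicate 1) and 0.14 (SE 0.093) for Col4a2, and in LE540 vs DMSO 0.017 and 0.080. Endothelial markers, of a cell type that lays down basement membrane, were higher in 12 of 12 members in ATRA vs DMSO (0 passed), beside 48.5% of all tested probe sets. Their summed intensity was 2810.8 to 6399.88 in ATRA and 2152.61 to 3706.71 in DMSO arrays, which overlap. Their part in the type IV values was not tested.

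Col4a1 and Col4a2 lie head to head on opposite strands, with annotated starts 21 bases apart in the RefSeq table. Each start lies just inside the other gene, so their first bases overlap, and their windows share 78 bases. The Col4a1 window is shown because part of it is also in the window of another collagen chain (GRCm38.p6, chr8:11312777-11313076, minus strand). Starts were compared only for this pair and for Col4a5 and Col4a6. Col4a3 and Col4a4, also neighbours, were not compared. Capitals mark the 78 bases that are also in the Col4a2 window.
Col4a1 promoter window: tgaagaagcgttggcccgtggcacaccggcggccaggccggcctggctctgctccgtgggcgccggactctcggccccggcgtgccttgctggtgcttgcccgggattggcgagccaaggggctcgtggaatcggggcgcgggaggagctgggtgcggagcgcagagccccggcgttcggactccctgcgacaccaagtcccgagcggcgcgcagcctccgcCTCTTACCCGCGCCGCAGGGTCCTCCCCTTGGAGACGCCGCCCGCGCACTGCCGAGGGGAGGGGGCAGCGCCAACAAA

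Col4a5 and Col4a6, on the X chromosome, are the other pair compared, also head to head, with starts 1343 bases apart and no shared window. Col4a6 (10607012) had 117, 110.4 and 143 in ATRA arrays, 109, 109 and 105 in LE540 arrays and 94.5, 98.0 and 109 in DMSO arrays. All ATRA arrays were above the rest by a small margin, at intensities close to the array medians. The log2 difference in ATRA vs DMSO was 0.29 (SE 0.12, unadjusted p = 0.0365 from limma, adjusted p = 0.999), and 0.18 without ATRA replicate 3. Col4a5 (10602105) had 209, 179 and 299 in ATRA arrays, 162, 173 and 180.0 in LE540 arrays and 197, 166 and 236 in DMSO arrays. Those groups overlapped, with log2 differences of 0.38 in ATRA vs LE540 (SE 0.20, adjusted p = 0.593) and 0.18 in ATRA vs DMSO. ATRA minus LE540 was also 0.18 without ATRA replicate 3.

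Across promoters, 38 windows of 35 of the 44 collagen genes were in the RefSeq table. Col1a1 and Col14a1 were among the genes without a window, so they were not searched. AGGTCA, the half-site bound by retinoic acid receptors and other nuclear receptors, was in 8 of 38 collagen windows, both strands searched (21.1%), and in 16.3% of all 32851 windows. The CCAAT letters were in 13 of 38 (34.2%, against 37.4% of all), and TATAAA in 5 of 38 (13.2%, against 13.6%). The last T of CCAAT can also be the first letter of TATAAA. The 8 genes with the half-site letters were Col4a4, Col6a5, Col7a1, Col9a1, Col11a1, Col20a1, Col23a1 and Col24a1. A match is only a run of letters in this window.

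Among the FACIT chains, Col14a1 (10424140), which binds fibril surfaces and limits their lateral growth in tendon and skin, had the largest difference of any collagen in ATRA vs DMSO. Its intensity was 669, 518 and 1016 in ATRA arrays, 332, 386 and 442 in LE540 arrays and 447, 325 and 383 in DMSO arrays. Each ATRA array was above all LE540 and DMSO arrays, while LE540 and DMSO arrays covered the same range. The ATRA mean of 734 ± 255 compared with 385 ± 60.9 in DMSO (SD, n = 3 each), a log2 difference of 0.89 (SE 0.24, 95% confidence interval 0.34 to 1.43, unadjusted p = 0.00513 from limma, adjusted p = 0.695). In ATRA vs LE540 it was 0.88 (SE 0.24, adjusted p = 0.258) and in LE540 vs DMSO 0.0093 (95% confidence interval -0.54 to 0.55). It ran from 0.62 without ATRA replicate 3 to 1.11 without ATRA replicate 2 in ATRA vs DMSO, and was 0.68 with the Y-chromosome score in the fit.

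Col12a1 (10595211), the FACIT chain closest to type XIV in function, had 126.3, 379 and 329 in ATRA arrays, 137, 224 and 217 in LE540 arrays and 211, 253 and 245 in DMSO arrays. Replicate 1 of ATRA was the lowest array and replicate 2 of ATRA the highest, so the group spanned all others. The log2 difference in ATRA vs DMSO was 0.088 (95% confidence interval -0.78 to 0.96). The other 7 FACIT probe sets differed by 0.020 to 0.13 in ATRA vs DMSO.

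The beaded type VI chains, which form microfibrils around interstitial cells, did not differ beyond their spread. Col6a1 (10370210) had 692, 504 and 639.8 in ATRA arrays, 747, 526 and 664 in LE540 arrays and 596, 531 and 596 in DMSO arrays. Col6a2 (10370180) had 366, 369.7 and 366 in ATRA arrays, 349, 341 and 402 in LE540 arrays and 357, 366 and 375 in DMSO arrays. Col6a3 (10356520), the long chain of the microfibril, had 515, 478 and 465 in ATRA arrays, 462, 535 and 692 in LE540 arrays and 638, 608 and 449 in DMSO arrays. The groups of all 3 chains overlapped in every comparison. In ATRA vs DMSO their log2 differences were 0.081, 0.0046 and -0.20, and in LE540 vs DMSO 0.16, -0.012 and -0.0088.

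Col6a4, Col6a5 and Col6a6, the alternative long chains, lie next to each other in the RefSeq gene table. Col6a6 gave the third lowest unadjusted p in LE540 vs DMSO (probe set 10596394, log2 difference -0.49, SE 0.31, adjusted p = 0.653). That probe set had 135, 80.8 and 137 in ATRA arrays, 92.5, 96.1 and 115 in LE540 arrays and 220, 94.3 and 137 in DMSO arrays, and the groups overlapped. LE540 minus DMSO was -0.17 without DMSO replicate 1, the highest array, and -0.78 without DMSO replicate 2. Its other probe set differed by -0.24. Both Col6a6 probe sets were negative in both comparisons with DMSO.

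LE540 minus DMSO showed no collagen whose arrays stood apart. The arrays of the 2 groups did not overlap for 0 of 46 collagen probe sets, where 12.6% of all tested probe sets did not overlap. In ATRA vs DMSO the count was 4 of 46, Col1a1, Col3a1, Col4a6 and Col14a1, all higher, beside 11.3% of all in either direction and 4.97% higher, and in ATRA vs LE540 6 of 46, beside 11.5%. Those 6 were the same 4 genes, higher, beside 5.24% of all, and Col4a3 and Col8a2, lower, beside 6.24% of all, at log2 differences of -0.087 and -0.12. The lowest unadjusted p in LE540 vs DMSO belonged to Col24a1 (10496656), a minor fibrillar chain known from developing bone, at 0.22 log2 (SE 0.12, adjusted p = 0.617). Its intensity was 116, 115 and 106 in ATRA arrays, 144, 117 and 114 in LE540 arrays and 97.6, 109 and 115 in DMSO arrays, which overlap. The log2 difference was 0.11 without LE540 replicate 1, the array least like the other 8 (r = 0.956 to 0.969 across probe sets).

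Col19a1, Col8a2 and Col17a1 completed the 5 lowest unadjusted p values of LE540 vs DMSO. Col19a1, a rare FACIT chain, had 89.2, 87.3 and 89.2 in ATRA arrays, 92.0, 93.4 and 89.2 in LE540 arrays and 70.6, 85.8 and 89.2 in DMSO arrays. Col8a2 had 105, 103 and 105 in ATRA arrays, 117, 116 and 106 in LE540 arrays and 108, 94.5 and 106 in DMSO arrays. Col17a1, a hemidesmosome protein of epithelia, had 129, 104 and 106 in ATRA arrays, 143, 110.2 and 111 in LE540 arrays and 107, 104 and 111 in DMSO arrays. Their log2 differences were 0.17, 0.14 and 0.17, with adjusted p of 0.652 to 0.707, and the LE540 and DMSO arrays of each overlapped. Single arrays weighed on each value: Col19a1 was at 0.065 without DMSO replicate 1, Col8a2 at 0.083 without DMSO replicate 2 and Col17a1 at 0.047 without LE540 replicate 1. All 3 had dim signals, below the array median in most arrays.

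Among the multiplexins, basement membrane proteins with sugar side chains, Col15a1 (10504775) had the most negative collagen difference in ATRA vs DMSO. Its intensity was 226, 329 and 274 in ATRA arrays, 232, 303 and 487 in LE540 arrays and 404, 309 and 441 in DMSO arrays. ATRA replicate 2 was above DMSO replicate 2, so the groups overlapped. The log2 difference was -0.48 (SE 0.27, 95% confidence interval -1.09 to 0.14, adjusted p = 0.999), and -0.23 in LE540 vs DMSO. ATRA minus DMSO was -0.27 with the cardiomyocyte marker level as a covariate and -0.63 with the Y-chromosome score. Col18a1, the precursor of endostatin, differed by 0.11 and 0.025. The transmembrane chains and the 3 others, Col7a1 of anchoring fibrils, Col26a1 and Col28a1, a chain of nerve sheaths, lay between -0.017 and 0.22 in ATRA vs DMSO.

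**Figure D4:**
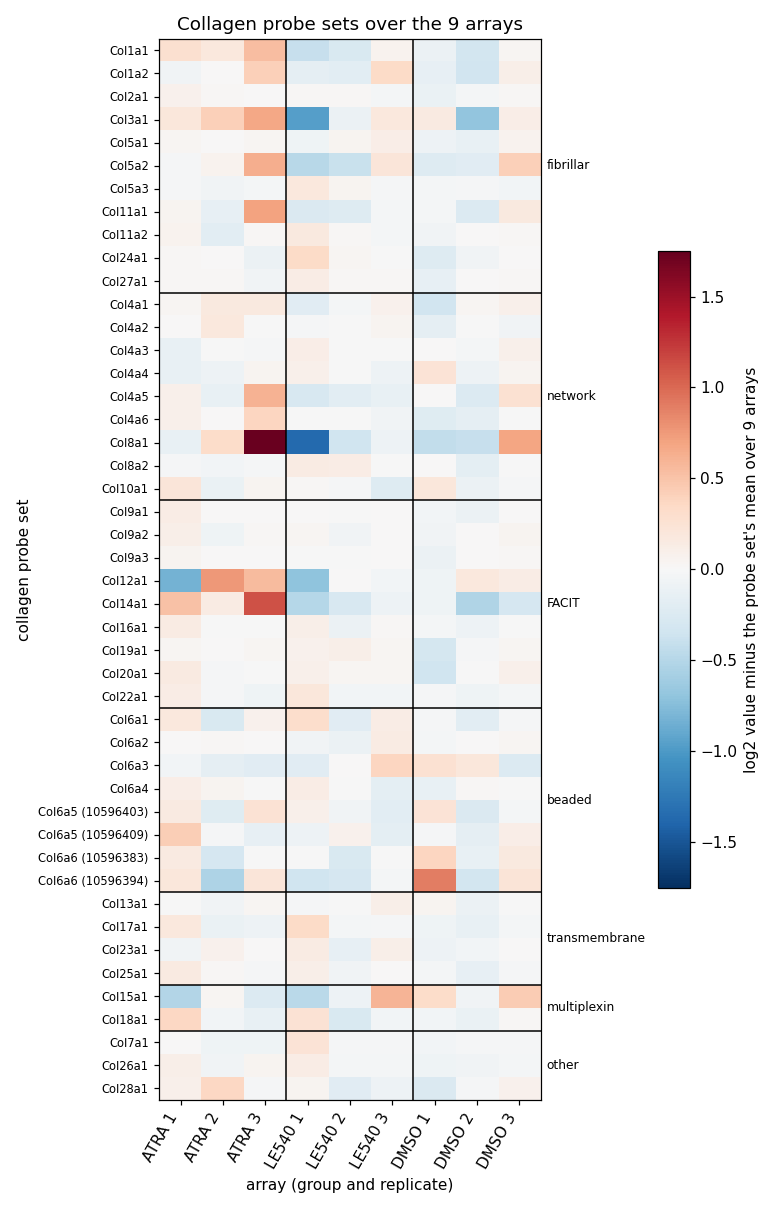
Log2 value of each of the 46 collagen probe sets (rows, by class) in each of the 9 arrays (columns), minus the probe set's mean over the arrays; red is higher and blue lower. ATRA replicate 3 has the deepest red in Col8a1 and Col14a1, LE540 replicate 1 the deepest blue in Col8a1 and Col3a1, and most rows of cartilage chains such as Col2a1 and Col9a3 are nearly blank.

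Collagens of cartilage were the flattest. Col2a1 (10432045), the main fibrillar chain of cartilage, had 224, 216 and 214 in ATRA arrays, 216, 216 and 208 in LE540 arrays and 197, 208 and 216 in DMSO arrays. Col9a3, a FACIT chain of cartilage fibrils, averaged 306 ± 5.48 in ATRA, 300.3 ± 2.49 in LE540 and 296 ± 14.6 in DMSO arrays (SD, n = 3 each). The groups overlapped, and the range over all 9 arrays was small. The type IX chains Col9a1, Col9a2 and Col9a3 differed by 0.090, 0.020 and 0.047 log2 in ATRA vs DMSO and by 0.043, -0.0094 and 0.022 in LE540 vs DMSO. Col11a1, at 261, 228 and 408 in ATRA arrays, 210.3, 215 and 246 in LE540 arrays and 246, 213 and 283 in DMSO arrays, was the least flat, with ATRA replicate 3 above the rest. Col10a1 also varied, from 120 in LE540 replicate 3 to 162 in ATRA replicate 1.

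The spread between replicates differed between collagens. The residual SD within groups had a median of 0.13 log2 over the 46 collagens and 0.068 over the 8 cartilage probe sets, beside 0.19 over all tested probe sets. It ran from 0.045 (Col9a3) to 0.77 (Col8a1). No detection calls were used here, so whether a flat signal is above the background of its probe set is unknown. Of the 46 collagens 32 lay above the array median in all 9 arrays, 5 (Col8a2, Col19a1, Col6a4, Col28a1 and a probe set of Col6a5) in none, and 0 below the lower quartile in any array. Chondrocyte markers were higher in 5 of 12 members in ATRA vs DMSO (0 passed), with a summed intensity of 1655.96 to 1960.02 in ATRA, 1552.5 to 2124.53 in LE540 and 1735.2 to 2954.9 in DMSO arrays. Of the 12, Matn1, a cartilage matrix protein, was below the lower quartile in all 9 arrays. Smooth muscle markers were higher in 8 of 8 members in ATRA vs DMSO, Schwann cell markers in 5 of 6, macrophage markers in 3 of 8 and cardiomyocyte markers in 1 of 12, with 0 passing. Of all tested probe sets 48.5% were higher in that comparison. Members of a list were measured on the same arrays, so their directions are not independent. Epithelial and mesothelial markers were higher in 6 of 8, and Krt18, a keratin of simple epithelia, passed (log2 difference 1.82, adjusted p = 0.0808). With the cardiomyocyte marker level as a covariate 0 collagens passed and the median collagen difference in ATRA vs DMSO was 0.054. The part of the other cell types in the collagen values was not tested.

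**Figure D5:**
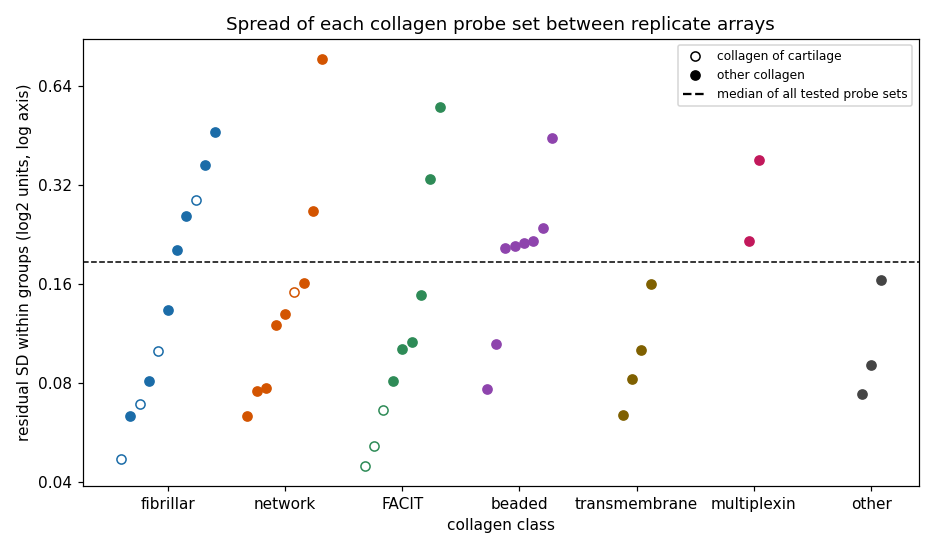
Residual SD of each collagen probe set between replicate arrays (log axis, log2 units) by class, with open points for the 8 cartilage probe sets and a dashed line at 0.19, the median of all tested probe sets. Col8a1 and Col12a1 lie highest, at 0.77 and 0.55, and 7 of the 8 open points lie below the line.

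Genes that make, bind and break down collagen were counted beside the chains. Of 29 measured genes of collagen synthesis and crosslinking 0 passed in any comparison, with 19 higher in ATRA vs DMSO, 9 in LE540 vs DMSO and 20 in ATRA vs LE540. The shares of all tested probe sets that were higher were 48.5%, 54.7% and 43.1% in the same order. Plod2, the lysyl hydroxylase of collagen telopeptides, had 770.2, 1429.8 and 1599 in LE540 arrays and 2539, 1954 and 2918 in DMSO arrays. The LE540 arrays lay below all DMSO arrays without passing (log2 difference -1.01, SE 0.27, adjusted p = 0.437). Lox, the crosslinking oxidase, was at 0.95 in ATRA vs DMSO (SE 0.36, adjusted p = 0.999). Adamts3, a procollagen N-proteinase, was at 0.31 in ATRA vs DMSO and 0.52 in ATRA vs LE540 (adjusted p = 0.999 and 0.354). P4ha3, a prolyl hydroxylase subunit, was at -1.15 in LE540 vs DMSO (SE 0.47, adjusted p = 0.553).

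Of 9 measured collagen receptors 1 passed, Itga1, the integrin subunit for type IV and type I collagen, which rose in ATRA vs LE540. Its intensity was 473, 571 and 380.1 in ATRA arrays and 275, 249 and 268 in LE540 arrays, with no overlap (log2 difference 0.83, SE 0.16, adjusted p = 0.0957). In LE540 vs DMSO and ATRA vs DMSO its differences of -0.41 and 0.42 did not pass. Itga10, another collagen-binding subunit, was at -0.58 in ATRA vs DMSO (adjusted p = 0.817), and in LE540 vs DMSO Mrc2, an uptake receptor for collagen, was at -0.91 and Lair1, an inhibitory receptor of immune cells, at -0.40 (adjusted p = 0.529 and 0.541). Of 10 collagen-degrading proteases and inhibitors 10 were higher in ATRA vs DMSO, beside 48.5% of all tested probe sets. Among them were Mmp8 and Mmp13, which were below the lower quartile in all 9 arrays. Of the 10, 1 passed, Fap, a protease that cleaves denatured collagen, at 431, 560.5 and 550.4 in ATRA arrays and 80.8, 85.1 and 64.3 in DMSO arrays (log2 difference 2.74, adjusted p = 0.00372). Fap also passed in ATRA vs LE540 (3.09, adjusted p = 0.00138), and 0 of these 10 genes passed in LE540 vs DMSO, where 1 had an unadjusted p under 0.05 (limma). That gene was Timp3, a matrix-bound inhibitor, at -0.59 (adjusted p = 0.559), followed by Mmp2, a gelatinase, at -0.72 (adjusted p = 0.591).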

How the data were processed

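The authors deposited 1 intensity for each probe set in each array, on a linear scale. Expression Console 1.1 from Affymetrix and RMA are the tools in the submitters' processing notes. RMA corrects background, quantile-normalizes arrays and summarizes probes. The annotation and genome build are not given in the sources used here. RNA was amplified before labelling, per the labels' protocols. Gene symbols came from the platform annotation, and 0 collagens shared a probe set with another symbol. Log2 values, taken here from the deposited intensities, of the 23397 probe sets with a symbol were fitted with limma 3.58.1 in R 4.3.3 (3 groups, 9 arrays, 6 residual and 2.725 prior degrees of freedom). Passing means an adjusted p under 0.1, from the series' design text. The scripts were tested on simulated data. The collagens and lists were chosen with earlier results of these data known. Collagens with values in every array were the 5 lowest unadjusted p values per comparison, the 10 highest mean signals, and the paired chains of types I, IV, VI, IX and XI by their differences; others are named by range or as exceptions. Pathway genes named were those that passed or otherwise the 2 with the lowest unadjusted p, and Tgm2, Rarb and Cyp26b1 were fixed as a check of exposure. Deviations from group means correlated between arrays of the same replicate number at r = 0.143, 0.342 and 0.22 (ATRA and DMSO), 0.261, 0.282 and 0.269 (ATRA and LE540) and 0.00946, 0.215 and 0.126 (LE540 and DMSO). LE540 replicates 1 and 3 correlated more with a DMSO array of another number (r = 0.0235 and 0.18). The number was therefore taken to pair ATRA arrays with the others, and not LE540 arrays with DMSO arrays. Promoter sequences are RefSeq's, build GRCm38.p6. Arrays have no depth in counts; their number limits the precision.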

Additional observations from a re-analysis of the deposited data

How the results depend on the processing

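The count of passing collagens was 0 in all 3 comparisons under every alternative run: added quantile normalization, median centring, leaving out dim probe sets, all rows, 1 probe set per gene, a trend and robust prior, array weights, the arrays of the 2 groups alone, a threshold of 0.05, the Y-linked and cardiomyocyte covariates, and each array left out in turn. With the replicate block it was 0 as well, with a lowest adjusted p of 0.106 (Col8a1 in ATRA vs LE540). The median collagen difference in ATRA vs DMSO became -0.0094 when adjusted for the Y-linked score and ran from 0.041 without ATRA replicate 1 to 0.11 without DMSO replicate 3. In ATRA vs LE540 it ran from -0.0097 without ATRA replicate 1 to 0.056 without ATRA replicate 2.

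Some signs turned, all of them in differences that did not pass, and the cause was not tested. With the Y-linked score ATRA minus DMSO was -0.022 for Col1a2, -0.10 for Col5a2, -0.20 for Col6a1 and -0.057 for Col6a2. LE540 minus DMSO was then -0.13 for Col14a1, -0.064 for Col1a2, -0.037 for Col6a1 and 0.040 for Col6a3, and ATRA minus LE540 was -0.0025 for Col6a2. Median centring gave 0.019 for Col6a2 and 0.022 for Col6a3 in LE540 vs DMSO and -0.0029 for Col6a2 in ATRA vs LE540. Quantile normalization gave 0.0057 for Col6a2 in LE540 vs DMSO, and array weights 0.10 for Col6a3 there and -0.00073 for Col6a2 in ATRA vs DMSO.

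With single arrays left out, ATRA minus DMSO ran from -0.014 to 0.21 for Col6a1 and -0.013 to 0.022 for Col6a2. LE540 minus DMSO ran from -0.21 to 0.026 for Col1a1, -0.044 to 0.24 for Col1a2, -0.43 to 0.18 for Col3a1, -0.12 to 0.10 for Col4a1, -0.085 to 0.033 for Col6a2, -0.17 to 0.12 for Col6a3 and -0.11 to 0.12 for Col14a1. ATRA minus LE540 ran from -0.023 to 0.29 for Col1a2, -0.22 to 0.058 for Col6a1 and -0.028 to 0.090 for Col6a2.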

Other observations

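Replicate 3 was the highest array of every group for 7 of 46 collagen probe sets (15.2%), those of Col1a1, Col1a2, Col5a2, Col11a1, Col4a1, Col4a5 and Col8a1, and for 4.21% of all tested probe sets. This pattern was noticed in the data and was not tested. Replicate 3 was the lowest of every group for 0 collagens.

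Many collagen probe sets carried the same intensity in several arrays. In 25 of 46 (54.3%) at least 2 arrays shared a value to 2 decimals, and in 13 of 46 (28.3%) at least 3 did, beside 37.0% and 16.7% of all tested probe sets. Of the 8 cartilage probe sets 7 had such a shared value. Col9a1 and Col27a1 held 1 value in 5 of the 9 arrays.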
